A study of Gossypium hirsutum with 30 samples.

Results

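The transcripts described here are the 54 probe sets that the transcription factor table of the study assigns to the WRKY family, of 24029 probe sets tested on the Affymetrix cotton GeneChip. Ovules of the fuzzless-lintless (fl) mutant of Gossypium hirsutum, a spontaneous mutant that makes neither lint nor fuzz, were compared with fibre-bearing ovules of its near-isogenic wild type (WT), cv. MCU5. Both genotypes were field-grown and sampled at 0, 5, 10, 15 and 20 days post anthesis (dpa), with 3 biological replicates of each genotype at each stage and 30 arrays in all. No gene or agent was added to either group. The mutant is 1 line, so it stands for that line only, and RNA came from whole ovules, in which fewer cells of a type and less RNA per cell cannot be told apart.

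WRKY proteins are plant transcription factors named for a conserved stretch of amino acids in their DNA-binding domain, and they bind the W-box in the promoters of their targets. In Arabidopsis they fall into structural groups I, II and III, with group II divided further into IIa to IIe. They are best known for defence against pathogens, for wounding and senescence, and for trichome and seed coat development. Many are switched on within minutes of a stimulus by calcium signals or by mitogen-activated protein (MAP) kinase cascades, and many bind proteins with a VQ motif.

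Only part of the list holds WRKY factors. By the Arabidopsis match given in the table, 25 probe sets matched a WRKY transcription factor, 16 different ones in all. Of the 14 of these that also stood in a table searched against the whole Arabidopsis proteome, 14 matched the same WRKY gene there. The others did not stand there. In the study's hormone table, searched against hormone genes only, WRKY54, Ghi.9193.2.A1_at and GhiAffx.2014.1.S1_s_at kept their WRKY match. Ghi.706.1.S1_at (WRKY46) matched WRKY53 there, Ghi.3193.2.S1_at (WRKY48) WRKY8 and WRKY6 WRKY33. WRKY35, WRKY11, GhiAffx.60347.1.S1_s_at (WRKY22) and GhiAffx.8448.1.A1_at (WRKY17) all matched WRKY39. The chip annotation names WRKY53 for Ghi.706.1.S1_at and WRKY22 for GhiAffx.60347.1.S1_s_at. A further 2 matched Arabidopsis resistance proteins that carry a WRKY domain, TTR1 (WRKY16) and RRS1 (WRKY52). The TTR1 match had another gene as its whole-proteome match, and its chip annotation names a putative disease resistance protein. The RRS1 match had SNC1 in the hormone table. Whether these 2 cotton transcripts encode a WRKY domain is not known from the matches, and TTR1 and RRS1 serve below as labels. The other 27 matched WRKY19, also named MEKK4, a large Arabidopsis protein that joins a resistance protein, a WRKY domain and a MAP kinase kinase kinase domain. Of these 27, 12 had a whole-proteome match, and there 12 matched a kinase and 0 matched WRKY19. All 27 also stood in the hormone table of the study as matches to other protein kinases. That search held hormone genes only, so a match there is the nearest gene of that set and cannot decide against WRKY19. The 27 are called kinases below and are named by their kinase match. For those without a whole-proteome match that name is a label only. In the platform annotation 7 of the 54 probe sets carried a cotton gene, 5 genes in all, among them WRKY15 for both WRKY15 probe sets, a gene with the synonyms WRKY24 and WRKY71 for the WRKY40 probe set Ghi.9192.1.S1_s_at, and MPK3 for both Ghi.7954.1.S1_s_at and Ghi.6088.1.S1_s_at.

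The 54 were chosen by the study on the genotype differences at these same 5 stages, since each had passed its thresholds in one or more of them. Their differences are therefore given as a description without a test, and the calls serve only to sort them. A transcript is called where the p from limma, adjusted over all probe sets by the method of Benjamini and Hochberg, was no more than 0.01 and the fold change no less than 3, which is 1.58 on the log2 scale. All 54 passed at one stage or more, against 16.4% of all probe sets. Nearest to the fold threshold, WRKY48 (Ghi.3193.2.A1_at) at 15 dpa lay just inside at 3.011-fold and WRKY40 (Ghi.9192.1.S1_s_at) at 10 dpa just outside at 2.996-fold. Each value is a log2 signal relative to the median of that probe set over the 6 arrays of its stage, so a positive value lies above the middle of that stage, and no level is compared between stages or between transcripts. Differences are fl mutant minus WT, with the SE of limma and n = 3 arrays per genotype. At 5 and 20 dpa the direction given by the sample labels is opposite to the direction printed in the study's own tables. The study's text likewise has WRKY factors lower in the mutant at 0 and 5 dpa. It reports that quantitative PCR of selected transcripts at all 5 stages gave a pattern similar to its arrays. The labels are followed throughout. Exchanging the genotypes at 5 and 20 dpa would turn every sign there and keep the size of each difference within a stage. It would change any value that sets these 2 stages against others.

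The called transcripts were all lower in the mutant at 0 dpa, all higher at 5 dpa by the labels, and went both ways at 10, 15 and 20 dpa, and at every stage but 10 dpa most of the 54 were not called. At 0 dpa 13 of the 54 were lower and 0 were higher, where 1.39% of all probe sets were lower and 0.154% higher. At 5 dpa 11 were higher and 0 lower, against 1.84% and 0.179% of all probe sets. The split at 10 dpa was 15 higher and 25 lower, where 4.91% of all probe sets were higher and 6.55% lower. At 15 dpa 9 were higher and 3 lower (1.52% and 1.91% of all probe sets), and at 20 dpa 1 was higher and 6 were lower (2.47% and 1.95%). The median difference of the 54 ran -0.40, 0.38, -0.81, 0.27 and -0.48 over the 5 stages, beside 0.09, -0.07, 0.04, -0.01 and 0.01 over all probe sets. The 3 mutant arrays lay wholly above or below the 3 WT arrays for 44, 38, 53, 44 and 39 of the 54 over the stages, where 56.9%, 49.2%, 64.3%, 54.8% and 58.3% of all probe sets did. Since the list was drawn from these comparisons, nothing is read from the distance to those shares.

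**Figure D1:**
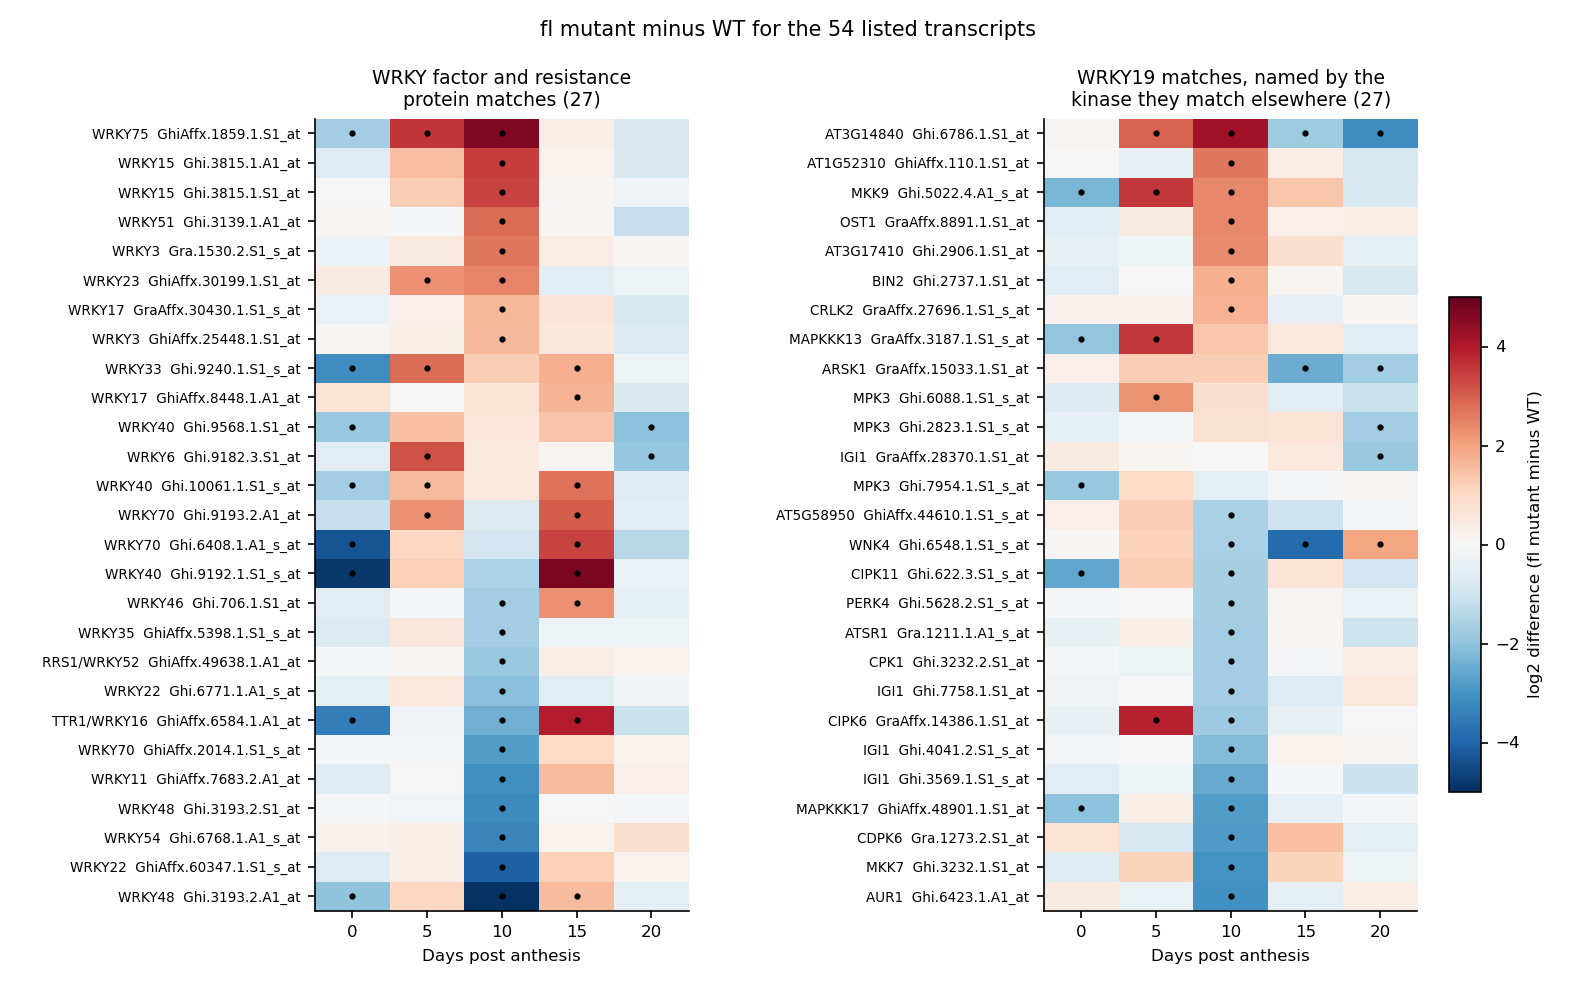
Colour gives the log2 difference, fl mutant minus WT, of each of the 54 transcripts (rows, ordered by the 10 dpa value) at 5 stages (columns), and a black dot marks a called difference. The 10 dpa column holds 40 of the calls, and in the 15 dpa column the calls are 9 higher in the left panel, of WRKY factors and resistance proteins, and 3 lower in the right panel, of kinases.

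The calls of the WRKY factors and of the kinases were as follows, and the difference between these groups was not tested. Of the 25 WRKY factors 7 were called lower at 0 dpa, 6 higher at 5 dpa, 8 higher at 15 dpa and 2 lower at 20 dpa, with no call in the other direction at these stages, and the 10 dpa calls comprised 8 higher and 9 lower. Among the 27 kinases 5 were called lower at 0 dpa, 5 higher at 5 dpa and 3 lower at 15 dpa. The kinase calls of 10 dpa comprised 7 higher and 14 lower, and those of 20 dpa 1 higher and 4 lower. The median difference of the kinases at 10 dpa was -1.61. That of the WRKY factors was 0.53, with 13 above 0 and 12 below, and with the 2 resistance proteins added it was -0.67. Over all 24029 probe sets 12839 lay above 0 there. The kinases ran from -3.01 to 4.18 there and the WRKY factors from -4.95 to 4.64, so the groups overlapped over most of their range. At 15 dpa the medians were 0.09 and 0.63, and none of the kinases was called higher there, the largest positive difference among them being 1.49.

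**Figure D2:**
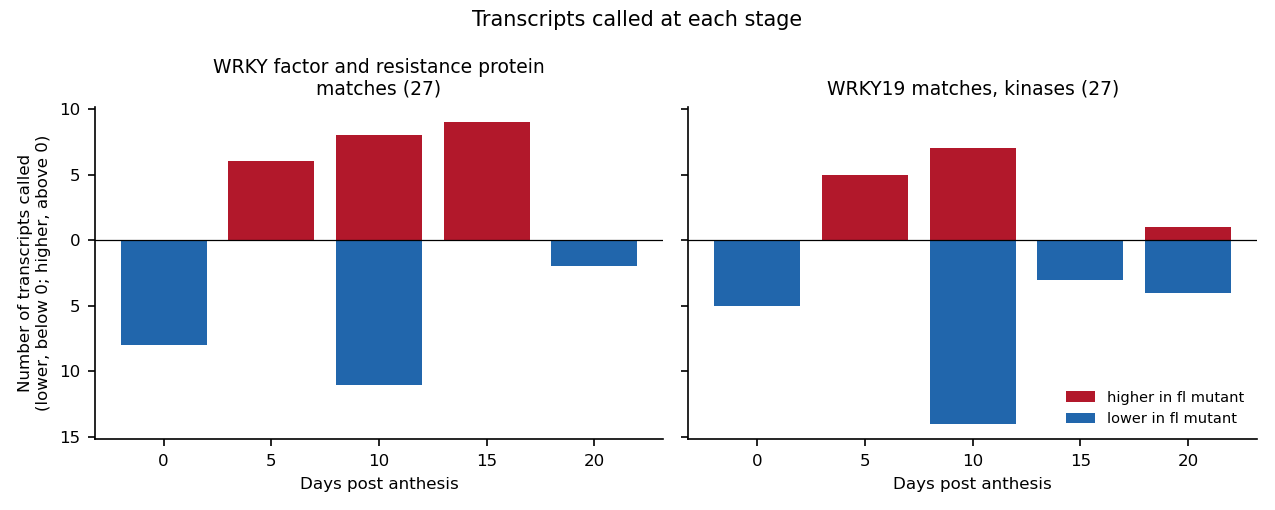
Bars give the number of transcripts called higher (above 0) and lower (below 0) in the fl mutant at each stage, for the 27 matches to WRKY factors and resistance proteins and for the 27 kinases. At 15 dpa the left panel has 9 higher and 0 lower and the right panel 0 higher and 3 lower.

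Most of the members were called at a single stage. That held for 34 of the 54, and 29 of them were called at 10 dpa only, where the share over all probe sets is 7.85%. The other 20 were called at 2 stages or more, against 4.6% of all probe sets, and 8 at 3 or more, against 1.56%. Of the 20, 14 were called in opposite directions at different stages, as 3.02% of all probe sets were. With the genotypes exchanged at 5 and 20 dpa this would be 15, in part other transcripts, and 2.29%.

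The WRKY40 group (IIa) was the one in which every listed probe set was lower at 0 dpa, 3 of 3. WRKY40 is in Arabidopsis a fast-acting repressor in defence and abscisic acid signalling. Its probe set Ghi.9192.1.S1_s_at read 2.35, 2.34 and 2.42 in the WT arrays of 0 dpa and -2.46, -2.61 and -2.34 in those of the mutant, a difference of -4.84 (SE 0.0777), or 28.6-fold lower. The order was turned at 15 dpa, where WT read -2.36, -2.17 and -2.84 and the mutant 2.31, 2.28 and 2.17, a difference of 4.71 (SE 0.165), or 26.1-fold higher. The 2 genotypes did not overlap at either stage, and these were the lowest value at 0 dpa and the highest at 15 dpa among the 54. At the other stages the genotypes were less far apart. The 5 dpa difference, by the labels, was 1.19, the 10 dpa difference -1.58 and the 20 dpa difference -0.30.

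The other WRKY40 matches moved the same way at 0 dpa by smaller amounts. Ghi.10061.1.S1_s_at read 0.76, 0.89 and 0.83 in WT and -0.88, -0.76 and -1.04 in the mutant at 0 dpa (-1.72, SE 0.0821), and -1.37, -1.57 and -1.27 against 1.27, 1.36 and 1.28 at 15 dpa (2.70, SE 0.0824). It was also higher by the labels at 5 dpa, at 1.60 (SE 0.0611), from -0.76, -0.82 and -0.79 in WT and 0.76, 0.89 and 0.76 in the mutant. That call sat at the threshold, and without WT replicate 2 or fl mutant replicate 2 it was lost, at 1.58 and 1.56. Ghi.9568.1.S1_at was lower at 0 dpa, with 0.97, 0.79 and 0.79 in WT and -1.29, -1.07 and -0.79 in the mutant (-1.90, SE 0.125). It was the only WRKY40 match called at 20 dpa, with 1.00, 1.03 and 0.98 in WT against -0.98, -1.08 and -1.11 (-2.06, SE 0.0680), and at 15 dpa its difference of 1.42 was not called.

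**Figure D3:**
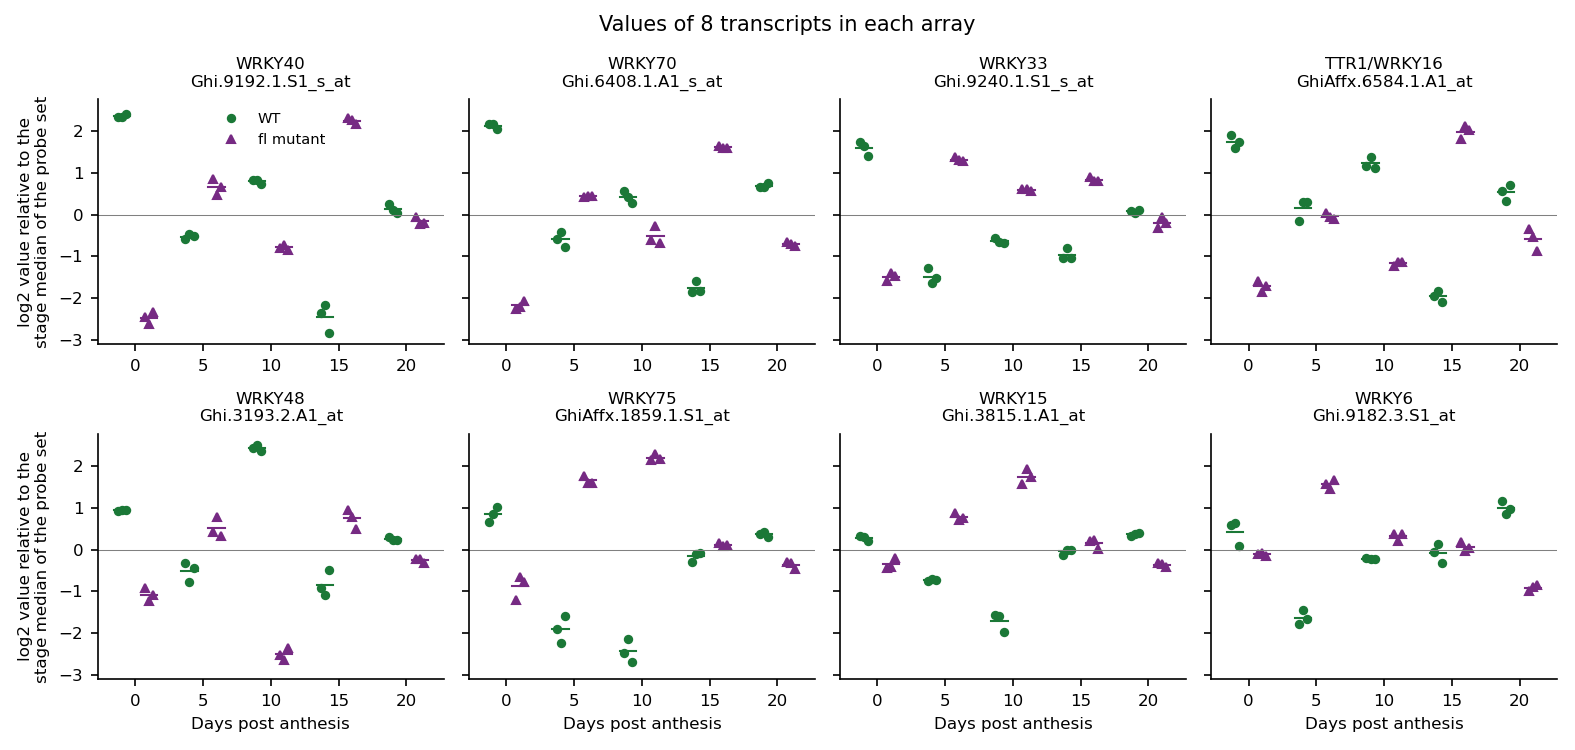
Points give the log2 value of each array relative to the stage median of that probe set, for WT (circles) and the fl mutant (triangles), with a short line at the mean of the 3 arrays. WRKY40, WRKY70, WRKY33 and TTR1 lie higher in WT at 0 dpa and higher in the mutant at 15 dpa, WRKY48 is widest apart at 10 dpa with WT on top, and WRKY75 is widest apart there with the mutant on top.

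The group III factors, WRKY70, WRKY54 and WRKY46, balance salicylic acid against jasmonic acid defence and act in leaf senescence in Arabidopsis. WRKY70 (Ghi.6408.1.A1_s_at) followed the pattern of WRKY40, with 2.17, 2.17 and 2.06 in WT and -2.26, -2.21 and -2.06 in the mutant at 0 dpa (-4.31, SE 0.0716). At 15 dpa WT read -1.85, -1.59 and -1.82 and the mutant 1.64, 1.61 and 1.59, a difference of 3.37 (SE 0.0756). A different WRKY70 match, Ghi.9193.2.A1_at, was not called at 0 dpa (-1.17) but was higher at 15 dpa, with -1.43, -1.62 and -1.26 in WT and 1.26, 1.85 and 1.60 in the mutant (3.01, SE 0.162). By the labels it was higher at 5 dpa as well, from -1.07, -1.22 and -0.98 to 1.36, 1.26 and 0.98 (2.29, SE 0.113).

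At 10 dpa group III leaned the other way, with 3 of 5 probe sets lower and all 5 below 0. WRKY54 (Ghi.6768.1.A1_s_at) was the lowest of them, at 1.62, 1.59 and 1.70 in WT and -1.60, -1.76 and -1.59 in the mutant (-3.29, SE 0.0872), and it was not called at any other stage. The WRKY70 match GhiAffx.2014.1.S1_s_at was lower by -2.81 (SE 0.0947) and was not called elsewhere either. WRKY46 (Ghi.706.1.S1_at) turned between 10 and 15 dpa. It read 0.77, 0.82 and 0.86 in WT against -0.92, -1.05 and -0.77 at 10 dpa (-1.73, SE 0.0942), and -0.87, -1.58 and -1.66 against 0.87, 0.98 and 0.92 at 15 dpa (2.30, SE 0.203), where WT replicate 1 lay nearer to the mutant than the other WT arrays. The WRKY70 matches thus differed among themselves, since 1 of 3 was lower at 0 dpa, another 1 of 3 was lower at 10 dpa, and 2 of 3 were higher at 15 dpa.

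Among the group I factors WRKY33 was called at 3 stages and the WRKY3 matches at 1. WRKY33 drives camalexin synthesis and resistance to necrotrophic fungi in Arabidopsis and is a substrate of the MAP kinase MPK3. Its probe set Ghi.9240.1.S1_s_at read 1.74, 1.65 and 1.41 in WT and -1.58, -1.41 and -1.48 in the mutant at 0 dpa (-3.09, SE 0.0961). By the labels the mutant was higher at 5 dpa, at 1.39, 1.30 and 1.28 against -1.28, -1.64 and -1.53 (2.80, SE 0.0968). It was higher again at 15 dpa, at 0.91, 0.80 and 0.82 against -1.04, -0.80 and -1.05 (1.81, SE 0.0781), and the genotypes overlapped at none of the 3 stages. WRKY3, which acts in resistance to necrotrophs too, was higher at 10 dpa in both of its probe sets, by 2.63 (SE 0.130) in Gra.1530.2.S1_s_at and by 1.62 (SE 0.111) in GhiAffx.25448.1.S1_at. The latter call was lost without WT replicate 3 of 10 dpa, at 1.51, and when arrays were centred on their median or their 75th percentile, at 1.58 and 1.55.

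Group IIc held the widest differences of the list at 10 dpa, in both directions. WRKY48, a negative regulator of basal resistance to bacteria in Arabidopsis, was the lowest of all 54 there. Its probe set Ghi.3193.2.A1_at read 2.44, 2.51 and 2.37 in WT and -2.52, -2.64 and -2.37 in the mutant, a difference of -4.95 (SE 0.0965), or 31.0-fold lower. It was lower at 0 dpa too, from 0.92, 0.94 and 0.95 to -0.92, -1.24 and -1.10 (-2.02, SE 0.0846), and higher at 15 dpa, from -0.92, -1.10 and -0.50 to 0.95, 0.79 and 0.50 (1.59, SE 0.181). The call at 15 dpa was lost when WT replicate 1 or 2 or fl mutant replicate 1 or 2 was left out, at 1.46 to 1.57. A second probe set with the same cluster number, Ghi.3193.2.S1_at, was lower at 10 dpa as well, by -3.19 (SE 0.124), but lay at -0.07, -0.12, -0.02 and -0.08 at the other 4 stages in order of age, so that the probe sets of WRKY48 agreed in direction at 10 dpa and parted by 1.96 at 0 dpa.

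WRKY75 was the highest of all 54 at 10 dpa. In Arabidopsis it acts in the response to phosphate starvation, in root hair and lateral root growth and in senescence. GhiAffx.1859.1.S1_at read -2.47, -2.14 and -2.70 in WT and 2.14, 2.29 and 2.17 in the mutant at 10 dpa (4.64, SE 0.140), or 24.9-fold higher. By the labels it was already higher at 5 dpa, from -1.91, -2.24 and -1.60 to 1.77, 1.60 and 1.60 (3.58, SE 0.150). At 0 dpa it was lower, from 0.67, 0.85 and 1.03 to -1.20, -0.67 and -0.78 (-1.73, SE 0.151), a call that was lost without fl mutant replicate 1, at -1.57, and at 15 dpa the difference was 0.28. WRKY23, an auxin-responsive factor of root development, was higher at 10 dpa and, by the labels, at 5 dpa, with -1.13, -1.08 and -1.17 in WT and 1.20, 1.20 and 1.08 in the mutant at 5 dpa (2.29, SE 0.0624) and -1.25, -1.12 and -1.36 against 1.12, 1.27 and 1.23 at 10 dpa (2.45, SE 0.0934). Of the 54, 4 were higher at both 5 and 10 dpa by the labels, where 0.886% of all probe sets were, and 0 would be with the genotypes of 5 and 20 dpa exchanged. WRKY51, which acts at the crossing of salicylic and jasmonic acid defence, was called at 10 dpa only (2.79, SE 0.141).

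Group IId split by gene at 10 dpa. WRKY15, WRKY17 and WRKY11 of this group carry a calmodulin-binding stretch in Arabidopsis, where WRKY11 and WRKY17 restrain basal resistance and WRKY15 acts in growth and oxidative stress. Both WRKY15 probe sets were higher at 10 dpa, Ghi.3815.1.A1_at from -1.57, -1.59 and -1.98 in WT to 1.57, 1.93 and 1.75 in the mutant (3.47, SE 0.141) and Ghi.3815.1.S1_at by 3.37 (SE 0.185). The 2 probe sets are assigned to 1 cotton gene and differed from each other by 0.10 at that stage. One WRKY17 match, GraAffx.30430.1.S1_s_at, was higher at 10 dpa (1.66, SE 0.0958), and the other, GhiAffx.8448.1.A1_at, was higher at 15 dpa only (1.68, SE 0.0443). WRKY11 (GhiAffx.7683.2.A1_at) went the opposite way at 10 dpa, with 1.61, 1.58 and 1.48 in WT against -1.48, -1.56 and -1.52 (-3.08, SE 0.0814), and at 15 dpa its difference of 1.58 lay just under the threshold.

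All 3 probe sets of group IIe were lower at 10 dpa and were called at no other stage. WRKY22, a factor of the defence cascade set off by bacterial flagellin in Arabidopsis, was lower by -4.10 (SE 0.118) in GhiAffx.60347.1.S1_s_at, or 17.2-fold, with 2.08, 1.90 and 1.98 in WT against -1.90, -2.32 and -2.12. It was lower by -2.09 (SE 0.111) in Ghi.6771.1.A1_s_at, and WRKY35 by -1.74 (SE 0.100).

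The single group IIb match, WRKY6, a factor of senescence and phosphate transport, was not called at 10 dpa (0.53). By the labels WRKY6 was higher at 5 dpa, from -1.79, -1.45 and -1.67 to 1.58, 1.45 and 1.67 (3.20, SE 0.102), and lower at 20 dpa, from 1.17, 0.85 and 0.97 to -1.00, -0.90 and -0.85 (-1.92, SE 0.0946).

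The WRKY factors at the other end of each stage had smaller differences. At 0 dpa the highest was the WRKY17 match GhiAffx.8448.1.A1_at, with -0.35, -0.42 and -0.26 in WT and 0.40, 0.34 and 0.26 in the mutant (0.68, SE 0.0664). At 5 dpa the lowest was Ghi.3193.2.S1_at for WRKY48, where the arrays of both genotypes overlapped (-0.12, SE 0.106). At 15 dpa the lowest was WRKY23, from 0.38, 0.18 and 0.13 to -0.33, -0.46 and -0.13 (-0.54, SE 0.104), and at 20 dpa the highest, by the labels, was WRKY54, from -0.35, -0.28 and -0.38 to 0.28, 0.81 and 0.31 (0.81, SE 0.138). None of these 4 differences was called.

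**Figure D4:**
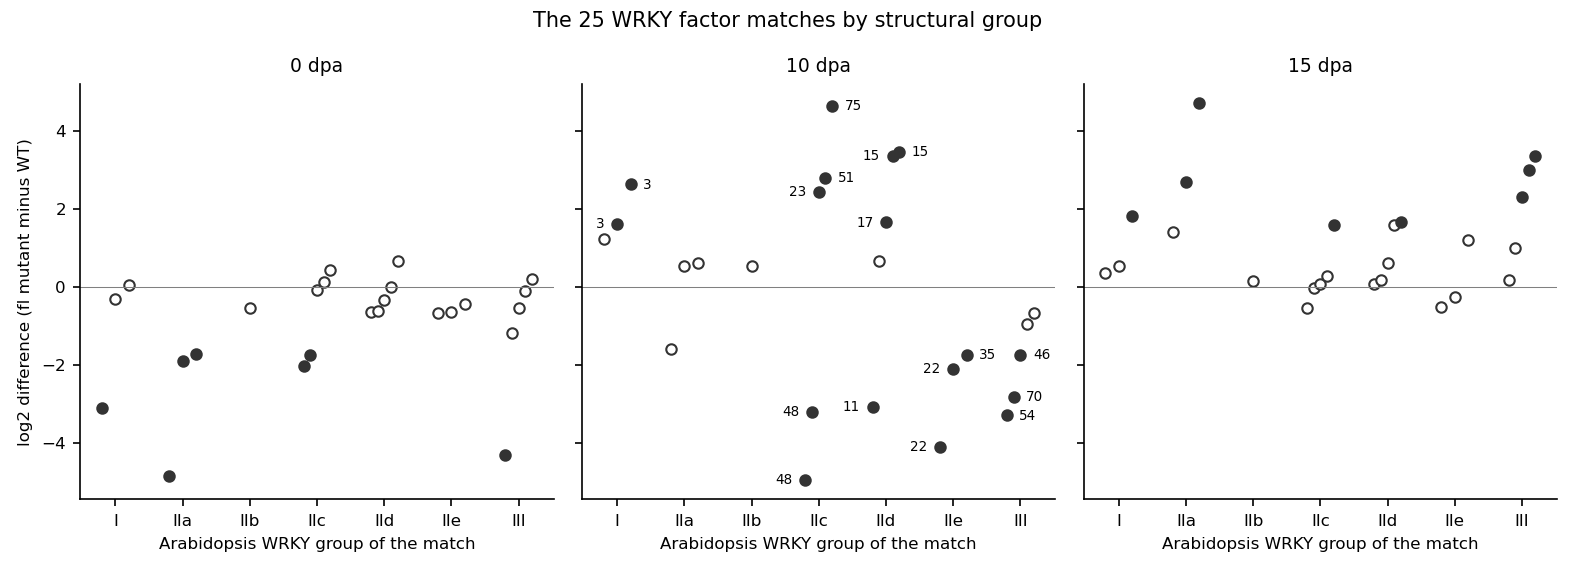
Points give the log2 difference, fl mutant minus WT, of the 25 WRKY factor matches at 0, 10 and 15 dpa by the Arabidopsis group of the match, filled where called and, at 10 dpa, labelled with the WRKY number. The calls of 10 dpa separate into the called WRKY3, WRKY15, WRKY17, WRKY23, WRKY51 and WRKY75 above 0 and WRKY11, WRKY22, WRKY35, WRKY46, WRKY48, WRKY54 and WRKY70 below 0, while the filled points of 15 dpa all lie above 0.

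Of the resistance protein matches the one labelled TTR1, a protein known in Arabidopsis for tolerance to tobacco ringspot virus, was called at 3 stages. GhiAffx.6584.1.A1_at read 1.91, 1.59 and 1.74 in WT and -1.59, -1.86 and -1.71 in the mutant at 0 dpa (-3.47, SE 0.101), and 1.18, 1.39 and 1.13 against -1.22, -1.13 and -1.13 at 10 dpa (-2.39, SE 0.0953). At 15 dpa the order was turned, with -1.94, -1.82 and -2.09 in WT and 1.82, 2.12 and 2.04 in the mutant (3.94, SE 0.100). RRS1, a receptor for bacterial wilt effectors, was called at 10 dpa only, from 0.98, 0.77 and 1.06 to -0.77, -0.95 and -1.17 (-1.90, SE 0.127).

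The turn from lower at 0 dpa to higher at 15 dpa was called in 6 of the 54, WRKY40 in 2 probe sets, WRKY70, WRKY33, WRKY48 and TTR1, where 0.637% of all probe sets were called that way, and in 0 of the 27 kinases. All 25 WRKY factor matches except 4 had a difference above 0 at 15 dpa, and 14 of the 27 kinases did, beside 11605 of all 24029 probe sets. Neither group was tested against the other or against the share over all probe sets. Of the 13 transcripts lower at 0 dpa, those not called at 15 dpa were WRKY75, the WRKY40 match Ghi.9568.1.S1_at and the 5 kinases.

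**Figure D5:**
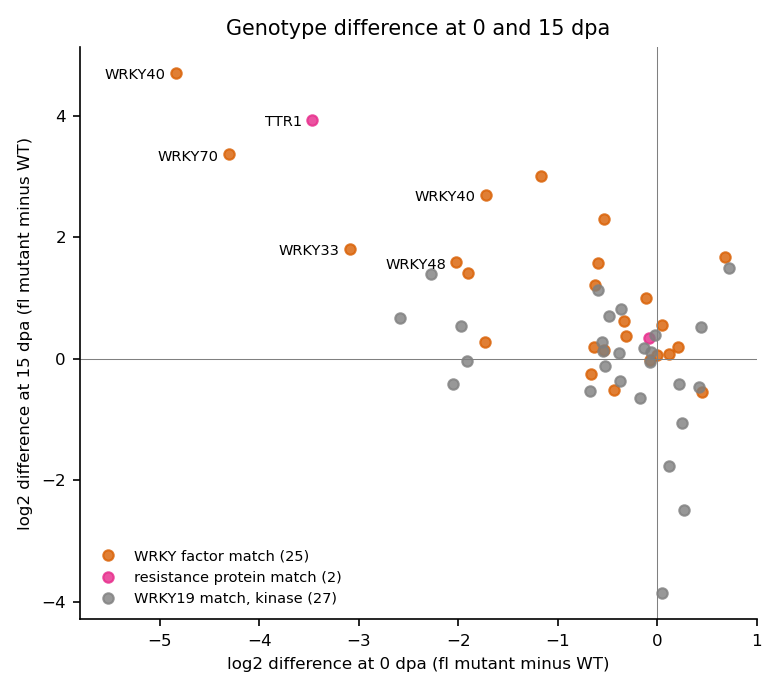
Each point is 1 of the 54 transcripts, with its log2 difference, fl mutant minus WT, at 0 dpa on the horizontal axis and at 15 dpa on the vertical axis, and the 6 transcripts lower at 0 and higher at 15 dpa are named. The kinases (grey) that were lowest at 0 dpa reach no higher than 1.40 at 15 dpa.

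Of the 5 kinases lower at 0 dpa 4 matched members of MAP kinase cascades, and the other was CIPK11. A cascade runs from a MAP kinase kinase kinase (MAPKKK) through a MAP kinase kinase (MKK) to a MAP kinase (MPK). MAPKKK17, induced by abscisic acid in Arabidopsis, was lower at 0 dpa, from 0.85, 1.04 and 1.06 in WT to -1.23, -1.11 and -0.85 in the mutant (-2.05, SE 0.107), and at 10 dpa, from 1.45, 1.53 and 1.27 to -1.37, -1.27 and -1.49 (-2.80, SE 0.101). MAPKKK13 was lower at 0 dpa, from 1.03, 0.80 and 0.95 to -0.80, -1.37 and -0.96 (-1.97, SE 0.143), and by the labels higher at 5 dpa, from -2.00, -1.87 and -1.65 to 1.70, 1.65 and 1.75 (3.54, SE 0.0940). MKK9, which acts upstream of MPK3 and of ethylene and camalexin synthesis in Arabidopsis, showed the same turn and stayed higher at 10 dpa. It read 1.22, 1.05 and 1.01 against -1.41, -1.01 and -1.16 at 0 dpa (-2.28, SE 0.110), -1.95, -1.63 and -1.89 against 1.78, 1.74 and 1.63 at 5 dpa (3.54, SE 0.0943), and -1.19, -1.12 and -1.29 against 1.12, 1.32 and 1.22 at 10 dpa (2.42, SE 0.0919).

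A match to MPK3 was given to 3 of the 27, and each was called at a different stage. Ghi.7954.1.S1_s_at was lower at 0 dpa (-1.91, SE 0.0693), Ghi.6088.1.S1_s_at higher by the labels at 5 dpa (2.26, SE 0.155) and Ghi.2823.1.S1_s_at, matched to MPK3 in the hormone table alone, lower at 20 dpa (-1.74, SE 0.0872). The chip annotation of Ghi.2823.1.S1_s_at names only a weakly similar protein kinase family protein, so its call is not read as one of MPK3. The first and the second are assigned to 1 cotton gene and lay 1.23 and 1.27 apart at 0 and 5 dpa, with the same sign. At 10 dpa they had opposite signs (-0.43 and 0.81), as at 20 dpa (0.15 and -1.12).

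Calcium-linked and receptor kinases were called at 10 dpa and at other stages. CIPK11, a partner of calcineurin B-like calcium sensors that restrains the plasma membrane proton pump in Arabidopsis, was the lowest kinase at 0 dpa, from 1.38, 1.10 and 1.27 to -1.16, -1.10 and -1.78 (-2.59, SE 0.179), and was lower at 10 dpa (-1.66, SE 0.0940). GraAffx.14386.1.S1_at, matched to CIPK6 in the hormone table alone, was the highest kinase at 5 dpa by the labels. It went from -1.73, -2.38 and -1.99 to 1.73, 1.95 and 1.75 (3.85, SE 0.157), and was lower at 10 dpa, from 0.92, 1.08 and 0.75 to -0.75, -1.01 and -0.87 (-1.80, SE 0.113). A leucine-rich repeat receptor kinase, Ghi.6786.1.S1_at, was called at 4 stages, more than any other member. It was higher at 10 dpa, from -2.11, -1.96 and -2.31 to 2.09, 1.96 and 2.12 (4.18, SE 0.108), and by the labels at 5 dpa (2.96, SE 0.0900), and then lower at 15 dpa, from 0.61, 0.81 and 0.61 to -1.55, -1.10 and -0.61 (-1.76, SE 0.227), and at 20 dpa, from 1.70, 1.83 and 1.32 to -1.61, -1.32 and -1.53 (-3.10, SE 0.138). Its call at 15 dpa was lost without fl mutant replicate 1, at -1.53.

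Ghi.6548.1.S1_s_at, matched to WNK4 in the hormone table and annotated as MAP kinase-like on the chip, was the lowest of all 54 at 15 dpa. WT read 1.90, 1.90 and 1.84 and the mutant -2.13, -1.84 and -1.97 (-3.86, SE 0.0781), or 14.5-fold lower, and at 20 dpa, by the labels, the mutant was higher, at 0.91, 0.96 and 1.00 against -0.91, -1.19 and -0.97 (1.98, SE 0.0885). It was also lower at 10 dpa (-1.63, SE 0.0758). GraAffx.15033.1.S1_at was matched in the hormone table alone to ARSK1, a root-specific kinase in Arabidopsis. It was lower at 15 dpa, from 1.35, 1.20 and 1.27 to -1.21, -1.24 and -1.20 (-2.49, SE 0.0510), and at 20 dpa by the labels (-1.73, SE 0.155). The latter call was lost without fl mutant replicate 2, at -1.56. At 10 dpa the lowest kinase was the Aurora kinase AUR1, which phosphorylates histone H3 in dividing cells, from 1.64, 1.49 and 1.45 to -1.50, -1.45 and -1.49 (-3.01, SE 0.0848). The kinase matched to CDPK6 in the hormone table, Gra.1273.2.S1_at, is annotated on the chip as weakly similar to another kinase, PPCK2. It was the highest of its set at 0 dpa (0.72) and at 15 dpa (1.49) without being called, and was lower at 10 dpa (-2.83, SE 0.185). It was also the lowest of the kinases at 5 dpa by the labels (-0.83). The remaining kinases were each called at 1 stage, 13 of them at 10 dpa, between -2.97 and 2.65, and 1 at 20 dpa, at -1.84.

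Genes that work with WRKY factors were read from lists fixed by name among the transcripts of the study's tables, which hold only transcripts that had passed its thresholds, so their counts are not independent of these arrays. Both VQ motif proteins were lower at 0 dpa (-3.06 and -1.68) and higher at 15 dpa (1.95 and 2.14), and 1 of them was also lower at 10 dpa (-1.80) and, by the labels, at 20 dpa (-1.60). Of 4 further MAP kinase probe sets 1 was lower at 0 dpa and 2 higher at 5 dpa by the labels. These were an MPK3 probe set, Ghi.6088.2.A1_s_at, at -2.51 and 3.38, and another, Ghi.6088.2.S1_at, at 1.82 at 5 dpa. The other 2 were called at 10 dpa only, MPK11 lower (-2.40) and MPK9 higher (1.93). Of 18 transcripts of the jasmonate list, which include the JAZ repressors and the lipoxygenases, 10 were lower and 3 higher at 10 dpa, 5 higher and 1 lower at 15 dpa, and the medians there were -1.73 and 0.64. The 1 lower at 15 dpa was LOX1 (-1.87). Lipoxygenases were taken by name, whatever their part in jasmonate synthesis. At 20 dpa, by the labels, 6 of them were lower and 1 higher (median -1.06). Of 9 defence proteins, among them chitinases, osmotins and PR4, 8 were higher at 10 dpa (median 2.98) and 1, PAD3 of camalexin synthesis, was lower (-2.86). Their medians at 0 and 15 dpa, where the WRKY40 and WRKY70 differences were widest, were -0.12 and -0.36. By the labels 4 of the 9 were higher and 0 lower at 5 dpa (median 1.24), and 1 was higher and 2 were lower at 20 dpa (median -1.07).

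Genes that answer touch and wounding within minutes were called in the same directions as the WRKY factors at 0 and 15 dpa, while at 10 dpa they were mostly lower. Of 28 such probe sets, for STZ, RRTF1, ERF2, ERF4, ERF5, TCH2 and TCH4, 15 were lower and 0 higher at 0 dpa (median -2.08), and 15 were higher and 0 lower at 15 dpa (median 2.25). The list had 18 lower and 3 higher at 10 dpa (median -2.12), where the WRKY factors had 9 lower and 8 higher. At 5 dpa, following the labels, 7 were higher, and at 20 dpa 4 were lower. The median of this list over the arrays ran from 0.96 to 1.06 in WT and from -1.16 to -1.01 in the mutant at 0 dpa, and from -1.43 to -0.98 in WT and 1.03 to 1.32 in the mutant at 15 dpa. Their part in the WRKY differences was not tested.

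Markers of the fibre cells were looked at beside these values. The study's microscopy showed fibre initials on the mutant at 0 dpa, fewer than on WT, that did not grow further. Of 10 fibre marker probe sets 2 were lower at 0 dpa, MYB16 (-5.17) and 1 of 2 for MYB106 (-3.76), which are regulators of epidermal outgrowth, and 1 was higher at 5 dpa. At 10 dpa 4 were lower and 2 higher, at 15 dpa 3 lower and 1 higher, and at 20 dpa 2 higher. The median of the fibre list ran over the arrays from 0.26 to 0.53 in WT and from -0.43 to -0.24 in the mutant at 10 dpa, and from 0.12 to 0.15 and -0.16 to -0.10 at 15 dpa. The single storage protein transcript found by name lay within 0.22 of 0 up to 15 dpa and at 9.57 at 20 dpa by the labels. The part of either list in the WRKY differences was not tested, and because every probe set is centred within its stage the markers give no level.

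Other probe sets that carry the cluster number of a listed WRKY factor did not always share its sign. There were 13 of these outside the list, 0 of them were called at any stage, and the widest difference was 1.47. The list holds what passed the study's thresholds, so that absence of calls is largely given by its making. At 10 dpa Ghi.706.1.A1_at (WRKY46, -1.47) and Ghi.6771.1.S1_at (WRKY22, -1.19) shared the sign of the listed probe set. Ghi.3139.1.S1_at (WRKY51) lay at 0.19 there, against 2.79 in the listed one. At 15 dpa Ghi.9193.2.S1_s_at (WRKY70) lay at 0.19 against 3.01, and Ghi.706.1.A1_at at -0.11 against 2.30. At 0 dpa Ghi.10061.2.A1_x_at (WRKY40) lay at 0.46 against -1.72, and Ghi.9240.3.A1_s_at (WRKY33) at -0.91 against -3.09. For WRKY70, Ghi.6408.2.A1_s_at, Ghi.6408.4.A1_at and Ghi.6408.4.S1_at lay at 0.03, 0.15 and 0.26 at 0 dpa, against -4.31 in Ghi.6408.1.A1_s_at. At 15 dpa they lay at 0.39, 0.10 and 0.08, against 3.37. At 5 dpa, by the labels, Ghi.9182.1.A1_s_at, Ghi.9182.2.A1_at and Ghi.9182.4.S1_at (WRKY6) lay at -0.58, -0.05 and 0.85, against 3.20.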

How the data were processed

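The arrays were scanned and summarised by the authors with robust multi-array averaging (RMA) in GeneSpring GX, and the deposited table holds log2 values of 24132 probe sets in 30 arrays. The values show a further step: every probe set has a median of 0 over the 6 arrays of each stage, to within 5e-07. They were used as deposited, without 103 Affymetrix control probe sets.

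At each stage the 3 fl mutant arrays were compared with the 3 WT arrays by limma 3.58.1 (lmFit and eBayes, R 4.3.3), with Benjamini-Hochberg adjustment over 24029 probe sets, and a transcript was called at 3-fold or more with an adjusted p no larger than 0.01. The fit was tested on simulated data. Counts, medians and drawings were made with pandas 2.3.3, matplotlib 3.10.9 and numpy 2.4.6 under Python 3.11.15. The number of arrays, 3 per genotype and stage, limits the precision of each difference.

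Members were the rows of the WRKY family in the study's transcription factor table. Only annotation columns of that and the other tables entered the results. Their columns of fold changes were read for direction alone. One of these tables was used in shortened form, so name-based lists may be incomplete. The members and all gene lists were chosen with earlier results of these data known. Matches to WRKY factors and resistance proteins may all be named, and are given by array at stages where they were called there and elsewhere or were the highest or lowest of their set. Of the kinases, those called at 2 or more stages and the highest and lowest at each stage were named, and MPK3 was named after its values were seen. The RefSeq gene table (assembly Gossypium_hirsutum_v2.1) gave cotton gene names only. No sequence of these genes was used here.

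The alternatives were the methods' t-test, 1 fit of all 30 arrays, a replicate block, arrays centred on their median or 75th percentile, a 2-fold threshold, a threshold of 0.05 on the adjusted p, and leaving out each array in turn. The exchange of genotypes at 5 and 20 dpa was added after seeing the data.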

Additional observations from a re-analysis of the deposited data

Results flagged for a closer look

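In 14 of the 54 transcripts every mutant array lay on one side of the WT arrays at one stage and on the opposite side at another, with both differences called. They are given by the gap between the log2 differences at the stages farthest apart, and the difference between stages was not tested. Of the 14, 9 matched WRKY factors or a resistance protein and 5 were kinases. Between 15 and 0 dpa the gap was 9.55 for WRKY40 (Ghi.9192.1.S1_s_at), 7.68 for WRKY70 (Ghi.6408.1.A1_s_at), 7.41 for TTR1 and 4.42 for WRKY40 (Ghi.10061.1.S1_s_at). Between 15 and 10 dpa it was 6.54 for WRKY48 (Ghi.3193.2.A1_at) and 4.03 for WRKY46, and between 10 and 0 dpa it was 6.37 for WRKY75.

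Where one of the stages was 5 or 20 dpa both the direction and the gap rest on the labels. Between 5 and 0 dpa the gap was 5.89 for WRKY33, 5.82 for MKK9 and 5.51 for MAPKKK13. It was 5.12 for WRKY6 between 5 and 20 dpa, and 5.65 between 5 and 10 dpa for GraAffx.14386.1.S1_at, labelled CIPK6 from the hormone table alone. It was 5.84 for Ghi.6548.1.S1_s_at between 20 and 15 dpa, and 7.28 for the receptor kinase Ghi.6786.1.S1_at between 10 and 20 dpa. With the genotypes exchanged at 5 and 20 dpa the gap between the same stages would be 0.29 for WRKY33, 1.26 for MKK9, 1.57 for MAPKKK13, 2.05 for CIPK6, 1.88 for Ghi.6548.1.S1_s_at and 1.08 for Ghi.6786.1.S1_at, with both calls in 1 direction, and that of WRKY6 would stay at 5.12 with the order turned.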

How the results depend on the processing

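The number of listed transcripts called kept within 1.5 times its value at every stage under the methods' t-test, the fit of all 30 arrays, both centrings and an adjusted p of at most 0.05. A fold change of at least 2 raised it from 11 to 22 at 5 dpa, from 12 to 20 at 15 dpa and from 7 to 13 at 20 dpa, by including smaller differences. Leaving out 1 array at a time gave 12 to 13 called at 0 dpa, 10 to 11 at 5 dpa, 39 to 41 at 10 dpa, 10 to 13 at 15 dpa and 6 to 7 at 20 dpa. The samples share only a replicate number: the deviations of same-numbered arrays correlated between -0.158 and 0.156, and with the replicate block 13, 11, 40, 12 and 7 transcripts were called, as without it. Single differences were followed for 35 transcripts, with 64 called differences. These were the WRKY factor and resistance protein matches and the kinases called at 2 or more stages. Kinases named above but called at 1 stage, such as AUR1, the CDPK6 match and the MPK3 matches, were not followed singly. None of the 64 changed sign under these alternatives, while exchanging the genotypes at 5 and 20 dpa, chosen after seeing the data, turns every sign at those stages. Of the 64, 6 fell short of the call when single arrays were left out, 1 under either centring (WRKY3, GhiAffx.25448.1.S1_at) and 1 under the methods' t-test (Ghi.6786.1.S1_at at 15 dpa). The 15 medians, over the list, the WRKY factors and the kinases at 5 stages, kept their sign and shifted by at most 0.15. Signs at 5 and 20 dpa rest on the sample labels. The arrays give no level, and a median of 0 in every stage hides how a transcript changes with age in either genotype.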

Other observations

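A further probe set, Ghi.1132.2.A1_a_at, is named WRKY41 by the chip annotation but is not in the WRKY list. WRKY41 is a group III factor that acts in defence and seed dormancy in Arabidopsis. This probe set was noticed after its values were seen, and it is a transcript of the study's own tables. Its log2 difference was -2.66 at 0 dpa (SE 0.0747) and 2.00 at 15 dpa (SE 0.0957). At the other stages it was not called, with 0.34 at 10 dpa and, following the labels, 1.25 at 5 dpa and -0.74 at 20 dpa. The mutant arrays lay between -1.48 and -1.28 at 0 dpa and between 0.88 and 0.92 at 15 dpa, and the genotypes overlapped at neither stage.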
